A study of Mus musculus with 6 samples.

Results

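Chemokines are small secreted proteins that guide migrating cells by binding G protein-coupled receptors. They are named by the spacing of their first cysteines (CC, CXC and CX3C), and many are made by stromal and muscle cells under the control of NF-κB, interferon and growth factor signals. The atypical chemokine receptors bind chemokines without coupling to G proteins in the usual way, and take the ligand into the cell, which lowers or shapes the amount outside it. In skeletal muscle, CC chemokines such as CCL2 are known for recruiting monocytes after injury, and CXCL12 for guiding muscle progenitor cells.

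The 10 genes described here are 8 chemokine ligands and 2 atypical receptors, of the 23154 genes in each count table. The ligands are the CC chemokine genes Ccl2, Ccl7, Ccl8 and Ccl9, the CXC genes Cxcl1, Cxcl5 and Cxcl12, and Cx3cl1, and the receptors are Ackr3 and Ackr4. They were taken by name, by the GENCODE M21 symbol of each Ensembl ID, with earlier results of these data known, and Ackr4 was chosen by its log2 fold change between the groups, a large fall. The comparison of the groups was thus part of the choice, and the values of the 10 genes are given as a description, with no test.

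RNA-seq was performed on C2C12 cells, an established mouse myoblast line, in 2 groups of 3 libraries. The HA-NUR77 group was a stable line that carried a doxycycline-inducible pINDUCER20b construct for NUR77 with an HA tag. NUR77 is a nuclear receptor whose mouse gene is Nr4a1. The GFP group was a stable line with GFP in the same vector. Both groups received doxycycline at 1 µg/mL, 24 hours after seeding, for 18 hours, so the GFP libraries are a control for the drug as well as the vector. The labels name 1 stable line per construct, each library came from its own dish, and a difference between the lines cannot be told apart from an effect of the construct.

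Libraries held 13906096 to 22821446 counts. The transcript of Nr4a1 itself stood at 437, 445 and 355 reads under the HA-NUR77 label and at 327, 196 and 417 under the GFP label (log2 fold change 0.14, SE 0.24, edgeR adjusted p = 0.698; −0.082 without GFP replicate 2 and 0.44 without GFP replicate 3). The sources used here do not say from which species the insert came, so this gene does not check the labels, and HA-NUR77 below stands for libraries so labelled. The myoblast list of 10 genes ranged widely in level, from Des, the muscle intermediate filament gene and the most abundant (3298 ± 381 CPM, reads scaled by library total and TMM factor, in HA-NUR77 and 2500 ± 429 CPM in GFP; SD, n = 3), through Myod1 (119 ± 6.18 and 91.6 ± 17.9 CPM) and Pax7 (4.16 ± 0.724 and 5.09 ± 1.21 CPM), to Myf6 (0.415 ± 0.0596 and 1.47 ± 0.824 CPM). Of these 10 genes, 2 rose and 1, Myf6, fell (log2 fold change −1.84, SE 0.47, edgeR adjusted p = 0.0268). DESeq2 called 4 higher and 1 lower, and edgeR with replicate number as a block called 6 higher and 3 lower. Of 12 genes of differentiated muscle, the most abundant of which was Acta1, 4 rose and 0 fell by edgeR, while 8 were higher and 1 was lower at an unadjusted p under 0.05. DESeq2 called 7 higher and 1 lower, and the block 9 higher and 1 lower. The summed level of that list was 19830 to 23766 CPM in HA-NUR77 and 12466 to 18415 CPM in GFP. Markers of leukocytes were low. Ptprc, which marks all white blood cells, had 1 read in each library. The 12 genes of the leukocyte list summed to 4.74 to 7.73 CPM in HA-NUR77 and 4.39 to 5.63 CPM in GFP. The most abundant of them was Cd14 (3.01 ± 0.787 and 2.31 ± 0.616 CPM), and 1 rose, Csf1r, the receptor of a macrophage growth factor, from 2, 10 and 7 to 36, 29 and 13 reads (log2 fold change 1.71, SE 0.51, edgeR adjusted p = 0.0443). The 8 endothelial markers summed to 1.01 to 2.14 CPM over all libraries, Tek was the most abundant, and 2 had no read. Of the 2 that could be tested, 0 were called by edgeR or DESeq2 and 0 had an unadjusted p under 0.05. Of 8 markers of fibro-adipogenic progenitors, Dcn was the most abundant, and 2 rose and 2 fell, including Ly6a (286 ± 14.1 against 123 ± 23.3 CPM, edgeR adjusted p = 0.00133) and Pdgfra (12.7 ± 1.22 against 24.8 ± 1.56 CPM). Their summed level was 1032 to 1182 CPM in HA-NUR77 and 878 to 943 CPM in GFP. Over all genes tested, edgeR called 12.4% higher and 13.2% lower. The part of these marker lists in the values below was not tested. In bulk RNA, fewer cells that express a gene and less of its RNA per cell cannot be told apart.

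Of the 10 genes, 8 passed the filter on low counts. The atypical receptors differed from GFP in opposite directions, with Ackr3 1.68-fold higher and Ackr4 15.3-fold lower in HA-NUR77. The 4 CC chemokine genes were 1.58 to 3.09-fold higher, Cx3cl1 was 1.32-fold lower, Cxcl12 differed little, and Cxcl1 and Cxcl5 had few reads and did not pass the filter. In edgeR's quasi-likelihood fit over 12509 genes, 4 of these genes lay among those called higher and 2 among those called lower at an adjusted p of 0.05. Over all genes tested, 12.4% were called higher and 13.2% lower, and since the comparison was part of the choice, nothing is read from the count of members. With the block, 5 members were higher and 2 lower. Without any 1 library, 1 to 4 members lay among those called higher and 1 to 2 among those called lower. Groups that did not overlap in CPM were seen for 4 members that were higher and 2 that were lower in HA-NUR77, against 23% and 22.5% of all genes tested.

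**Figure D1:**
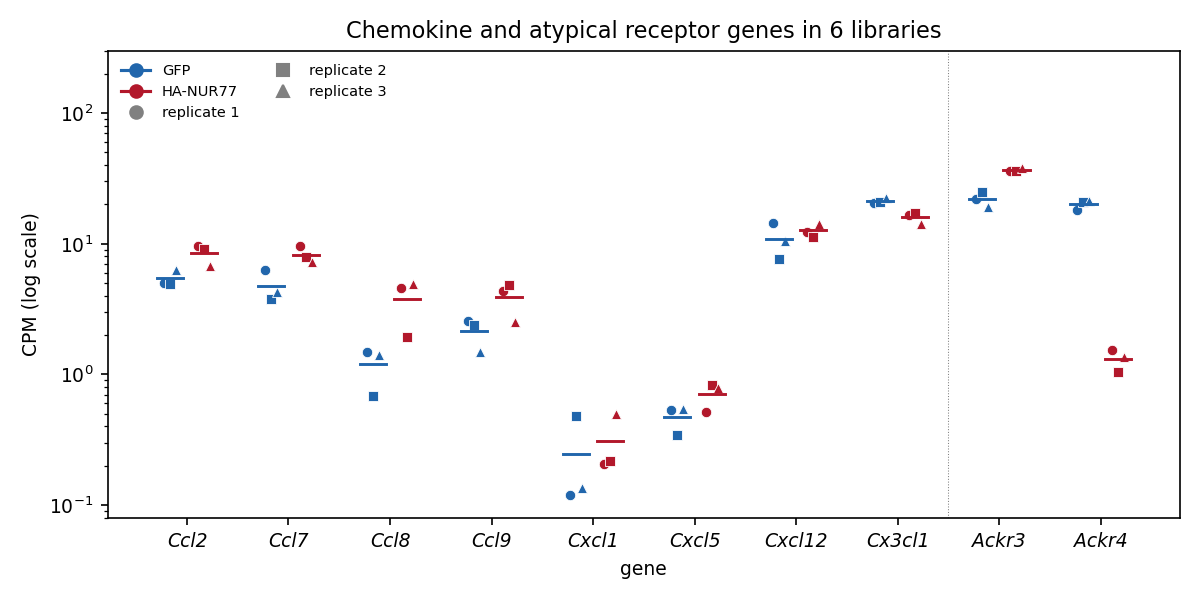
CPM of the 10 genes on a log scale in each of 6 libraries, with GFP in blue and HA-NUR77 in red, a symbol per replicate number and a line at the group mean. Ackr4 stands at 18 to 21.4 CPM in GFP and at 1.05 to 1.55 CPM in HA-NUR77, and Cxcl1 and Cxcl5 lie below 1 CPM in every library.

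**Figure D2:**
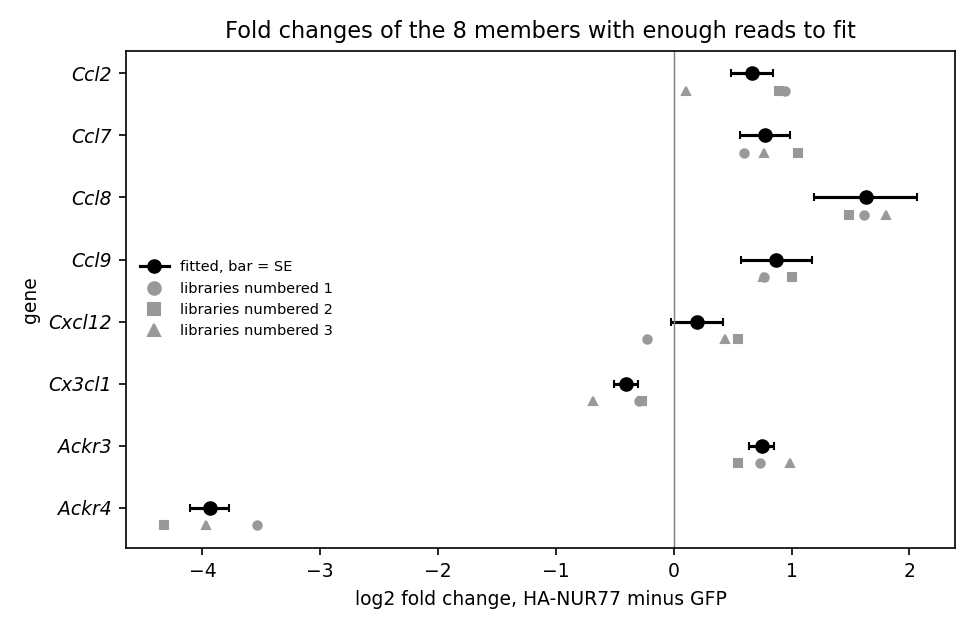
Fitted log2 fold changes (HA-NUR77 minus GFP) of the 8 genes that passed the filter, with bars for 1 SE, and in grey below each the log2 ratio of the libraries with the same replicate number. Ackr4 lies at −3.94 and the 4 CC chemokine genes lie between 0.66 and 1.63.

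Ackr4 encodes the scavenger of the CC chemokines CCL19, CCL21 and CCL25, which it takes up and degrades. The gene (ENSMUSG00000079355) lies on the minus strand of GRCm38 chromosome 9, from 104084157 to 104126933. It had 304, 306 and 316 reads in GFP replicates 1, 2 and 3, and 30, 24 and 19 in HA-NUR77 replicates 1, 2 and 3. All 3 GFP libraries were far above all 3 HA-NUR77 libraries, and replicates of a group lay within 1.48-fold of each other. The level was 20.1 ± 1.84 CPM in GFP and 1.32 ± 0.254 CPM in HA-NUR77 (SD, n = 3), a fitted log2 fold change of −3.94 (SE 0.17). It stayed between −4.09 and −3.77 when any 1 library was left out. Reads were still present in each HA-NUR77 library, so the transcript was low and not absent.

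Ackr4 shares sequence with another gene, which bears on how its reads were counted. Acad11, an acyl-CoA dehydrogenase gene, lies over it on the plus strand, and 479 bp of annotated exon overlap. The library kit keeps strand, but the sources used here do not say whether the counting used it, so reads in the overlap are uncertain. Acad11 had 612, 492 and 547 reads in GFP and 548, 614 and 474 in HA-NUR77 (log2 fold change −0.27, SE 0.10, edgeR adjusted p = 0.0908; 0.00959 with the replicate number as a block and 0.0297 without HA-NUR77 replicate 3). Its difference was small beside that of Ackr4. Among the ligands of ACKR4, Ccl19 had no read in any library and Ccl21a had 2 in all. Ccl25 had 32, 28 and 40 reads in GFP and 56, 64 and 42 in HA-NUR77 (log2 fold change 0.41, SE 0.20, edgeR adjusted p = 0.165).

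Ackr3 encodes a scavenger of CXCL12 and CXCL11 that works largely through beta-arrestin. The gene (ENSMUSG00000044337) lies on the plus strand of chromosome 1, from 90203980 to 90216751. It had 702, 832 and 525 reads in the HA-NUR77 libraries, in the order of their numbers, and 368, 363 and 281 in the GFP libraries. Its levels were the most even among the 10 genes within HA-NUR77, at 36.3, 36.3 and 37.7 CPM, against 21.8, 24.9 and 19 CPM in GFP, and the groups did not overlap. The means were 36.8 ± 0.799 and 21.9 ± 2.96 CPM (SD, n = 3), and the fitted log2 difference of 0.75 (SE 0.10) stayed between 0.65 and 0.85 with any 1 library left out. Per kilobase of exon, Ackr3 had 1.43 to 1.95 times the level of Ackr4 in the GFP libraries and 37.6 to 55.7 times in the HA-NUR77 libraries.

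Cxcl12 encodes the shared ligand of ACKR3 and of the signalling receptor CXCR4. The gene (ENSMUSG00000061353) lies on the plus strand of chromosome 6, from 117168535 to 117181367. It had 240, 257 and 199 reads in HA-NUR77 and 245, 112 and 156 in GFP, and the groups overlapped, with GFP replicate 1 the highest of the 6 libraries. The level was 12.6 ± 1.55 CPM in HA-NUR77 and 10.9 ± 3.44 CPM in GFP (SD, n = 3), or 0.20 on the log2 scale in the fit (SE 0.22). The value moved with the library left out. It was 0.46 without GFP replicate 1, 0.0019 without GFP replicate 2, 0.10 without HA-NUR77 replicate 3 and 0.16 to 0.28 without any of the others. Cxcl11, the other ligand of ACKR3, had no read.

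Cxcr4 is not among the 10 genes and was tested as one of the other receptors. It fell from 1274, 836 and 902 reads in GFP to 585, 672 and 446 in HA-NUR77. The means were 64.7 ± 9.61 and 30.5 ± 1.36 CPM (SD, n = 3), a 2.12-fold fall (log2 fold change −1.08, SE 0.11, edgeR adjusted p = 0.000851), and it was called in each of the 6 fits that left out 1 library. Per kilobase of exon, the level of Ackr3 was 0.156, 0.234 and 0.168 of that of Cxcr4 in GFP replicates 1, 2 and 3. It was 0.648, 0.669 and 0.636 in HA-NUR77, so Cxcr4 had the higher level per kilobase in every library and the gap was smaller in all 3 HA-NUR77 libraries.

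**Figure D3:**
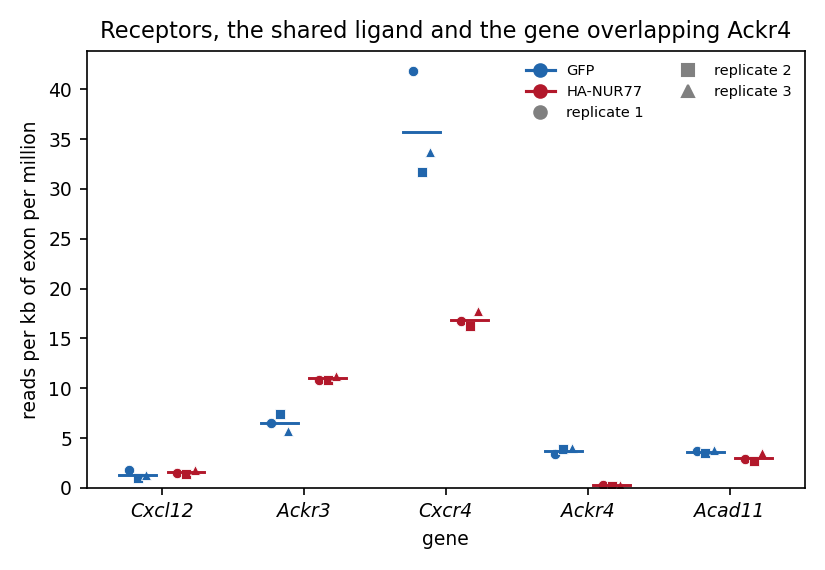
RPKM (CPM per kilobase of exon) in each library for Cxcl12, its receptors Ackr3 and Cxcr4, Ackr4, and Acad11, which overlaps Ackr4, with GFP in blue, HA-NUR77 in red and a line at each group mean. Cxcr4 goes from a mean of 35.8 to 16.9 and Ackr3 from 6.55 to 11, while Acad11 goes from 3.64 to 3.03.

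The bases before the start sites of Ackr3 and Cxcl12 are shown because both genes belong to the same receptor system and differ in what their promoters hold. They are the 250 bases upstream of the RefSeq start (GRCm38.p6), chr1:90203730-90203979 for Ackr3 and chr6:117168285-117168534 for Cxcl12, both on the plus strand, with matches to the TATA box letters (TATAAA) and the GC box letters (GGGCGG, on either strand) in capitals.
Ackr3: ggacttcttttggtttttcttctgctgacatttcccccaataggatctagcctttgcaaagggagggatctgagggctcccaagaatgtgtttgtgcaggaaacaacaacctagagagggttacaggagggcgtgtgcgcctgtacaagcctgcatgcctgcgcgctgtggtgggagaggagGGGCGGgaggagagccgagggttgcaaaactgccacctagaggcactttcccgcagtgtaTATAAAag
Cxcl12: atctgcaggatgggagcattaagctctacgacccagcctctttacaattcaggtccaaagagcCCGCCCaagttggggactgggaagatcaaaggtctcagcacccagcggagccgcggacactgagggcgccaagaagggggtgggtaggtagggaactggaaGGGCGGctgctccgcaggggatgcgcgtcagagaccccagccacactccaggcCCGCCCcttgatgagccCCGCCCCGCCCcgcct
The Ackr3 window had a TATAAA that begins 8 bases before the start and 1 GC box, and the Cxcl12 window had 5 GC box matches, of which the last 2 share a base, and no TATAAA. Of 32851 such windows over all genes, 12.4% held TATAAA and 32.7% a GC box. GC content was 54% for Ackr3, 64.4% for Cxcl12 and 52.4% at the median of all windows. The NBRE, the element that NUR77 is known to bind as a monomer (AAAGGTCA), was searched on both strands and found in none of the 7 members with a window, against 1.34% of all windows. At that share, absence from 7 windows says little. All 250 bases of the Ackr4 window and 171 of the Cx3cl1 window also lie inside the annotated gene itself.

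The 8 ligands together summed to 51.1 to 58 CPM in HA-NUR77 and 41.1 to 51.1 CPM in GFP. The 4 CC ligands alone summed to 21.5 to 28.1 CPM in HA-NUR77 and 11.8 to 15.4 CPM in GFP, without overlap.

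The CC chemokine genes Ccl2, Ccl7 and Ccl8 encode attractants of white blood cells that act through CC chemokine receptors. They lie in a row on the plus strand of chromosome 11. Ccl8 is 79.6 kb from Ccl2, left end to left end, and Ccl7 is 10.1 kb from it. Ccl2 (ENSMUSG00000035385, 82035571 to 82037453) had 187, 210 and 94 reads in the HA-NUR77 libraries and 85, 72 and 93 in the GFP libraries. Scaled for depth this was 9.67, 9.17 and 6.75 CPM against 5.04, 4.94 and 6.29 CPM. The groups did not overlap, but HA-NUR77 replicate 3 lay close to GFP replicate 3, and the log2 ratio of that pair was 0.10 against 0.94 and 0.89 for the others. The fitted log2 fold change was 0.66 (SE 0.18).

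Ccl7 (ENSMUSG00000035373, 82045712 to 82047525) had 185, 180 and 101 reads in HA-NUR77 and 107, 55 and 63 in GFP. The levels were 9.57, 7.86 and 7.25 CPM against 6.35, 3.78 and 4.26 CPM, again without overlap, and GFP replicate 1 stood highest in its group. The log2 fold change was 0.77 (SE 0.22). Per kilobase of exon, Ccl7 stood at 1.38 ± 0.156 times Ccl2 in HA-NUR77 and 1.28 ± 0.446 times in GFP (SD, n = 3), a difference smaller than the spread between replicates.

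Ccl8 (ENSMUSG00000009185, 82115185 to 82116799) had the largest relative difference among the ligands and few reads, 88, 44 and 69 in HA-NUR77 and 25, 10 and 21 in GFP. The levels were 4.55, 1.92 and 4.95 CPM against 1.48, 0.687 and 1.42 CPM. Replicate 2 was the lowest in both groups, by 2.58-fold below the highest in HA-NUR77 and 2.16-fold in GFP. The same-numbered libraries differed by log2 ratios of 1.62, 1.48 and 1.80, a narrower range than the groups themselves, and the fitted log2 fold change was 1.63 (SE 0.44; 1.36 to 1.97 with any 1 library left out).

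Ccl9 (ENSMUSG00000019122) encodes a ligand of CCR1 known from mouse macrophages and osteoclasts, and it lies apart from the others on the minus strand of chromosome 11, from 83572919 to 83578636. It had 84, 110 and 35 reads in HA-NUR77 and 43, 35 and 22 in GFP. The groups overlapped, since HA-NUR77 replicate 3 at 2.51 CPM lay just under GFP replicate 1 at 2.55 CPM. The log2 fold change was 0.87 (SE 0.30). Within each replicate number, HA-NUR77 was higher, with log2 ratios of 0.77, 1.00 and 0.76.

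**Figure D4:**
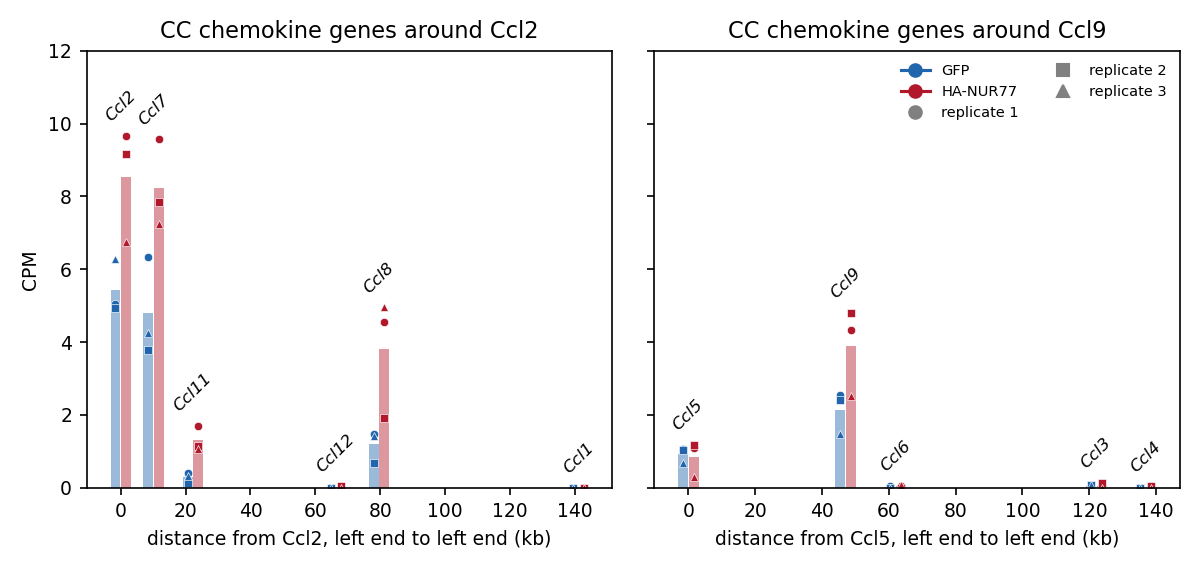
CPM of CC chemokine genes on chromosome 11 by distance along the chromosome, in the row that holds Ccl2 and in the row that holds Ccl9, with bars for group means and points for libraries (GFP blue, HA-NUR77 red). Ccl12, Ccl1, Ccl6, Ccl3 and Ccl4 have almost no reads beside their neighbours, and Ccl11 is low in GFP.

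The neighbours of these genes differed widely in level. Ccl11, which encodes the eosinophil attractant eotaxin and lies between Ccl7 and Ccl8, was tested outside the 10 genes and rose from 7, 2 and 5 reads in GFP to 33, 26 and 15 in HA-NUR77 (log2 fold change 2.09, SE 0.41, edgeR adjusted p = 0.0109), and was called in each of the 6 fits that left out 1 library. In the same row, Ccl12 had 1 read in all and Ccl1 had none. Next to Ccl9, Ccl5 had 21, 27 and 4 reads in HA-NUR77 and 18, 15 and 10 in GFP, with adjusted p = 0.947 for a log2 fold change of −0.05 (SE 0.46). Ccl6, Ccl3 and Ccl4 had 3, 6 and 1 reads over all 6 libraries.

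The upstream bases of Ccl8 and Ccl9 are shown as the windows at hand for the CC genes that were higher. They are chr11:82114935-82115184 on the plus strand for Ccl8 and chr11:83578637-83578886 on the minus strand for Ccl9, each 5′ to 3′ on the gene's strand. Capitals mark matches, on either strand, to TATAAA, to the AP-1 letters TGANTCA and to the kappa-B consensus, the site class of NF-κB.
Ccl8: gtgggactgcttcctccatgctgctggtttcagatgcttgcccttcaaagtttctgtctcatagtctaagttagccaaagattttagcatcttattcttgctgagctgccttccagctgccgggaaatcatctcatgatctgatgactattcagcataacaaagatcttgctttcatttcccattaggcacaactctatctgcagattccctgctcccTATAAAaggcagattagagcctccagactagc
Ccl9: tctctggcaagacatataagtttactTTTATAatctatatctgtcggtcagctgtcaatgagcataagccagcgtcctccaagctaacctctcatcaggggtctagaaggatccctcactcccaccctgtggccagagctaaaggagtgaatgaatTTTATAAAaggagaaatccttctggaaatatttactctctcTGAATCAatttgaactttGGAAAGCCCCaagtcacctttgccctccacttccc
The Ccl8 window held a TATAAA 32 bases before the start and no other motif searched. The Ccl9 window held a kappa-B match that begins 35 bases before the start, an AP-1 match at 53 bases and 3 TATA box matches, 2 of which overlap on opposite strands. A kappa-B match was present in 7.25% of all windows and an AP-1 match in 6.75%, and among the 7 members with a window Cxcl1 also held a kappa-B match, at 71 bases. The ISRE, the element of interferon-regulated genes, was in none of the 7 and in 2.98% of all windows, so its absence from 7 says little.

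Cx3cl1 (ENSMUSG00000031778) encodes fractalkine, a membrane-bound chemokine with a mucin stalk that is released by ADAM10 and ADAM17. It lies on the plus strand of chromosome 8, from 94772009 to 94782427. It had 323, 395 and 196 reads in HA-NUR77 and 345, 303 and 334 in GFP, which is 16.7, 17.2 and 14.1 CPM against 20.5, 20.8 and 22.6 CPM. All HA-NUR77 libraries were below all GFP libraries, and the log2 fold change was −0.41 (SE 0.10). Neither sheddase gene passed the test, with fitted log2 differences of −0.09 for Adam10 (SE 0.09, edgeR adjusted p = 0.443) and 0.14 for Adam17 (SE 0.06, adjusted p = 0.125). Its receptor gene Cx3cr1 had 2 reads in all.

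Cxcl1 and Cxcl5 encode neutrophil attractants that act through CXCR2, and lie in a row of CXC genes on chromosome 5. Cxcl1 (ENSMUSG00000029380, plus strand, 90891241 to 90893115) had 4, 5 and 7 reads in HA-NUR77 and 2, 7 and 2 in GFP. The depth-scaled ratio of the summed reads was 1.21, with an exact binomial 95% interval of 0.526 to 2.87 that covers counting error only, so no difference was detectable at this depth. Cxcl5 (ENSMUSG00000029371, plus strand, 90759360 to 90761624) had 10, 19 and 11 reads against 9, 5 and 8, a ratio of 1.51 (0.875 to 2.66), and the groups overlapped. Their neighbours Cxcl2, Cxcl3, Cxcl15 and Pf4 had no read in any library.

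In RPKM, CPM per kilobase of exon, the order of the 10 genes over all libraries was Ackr3 (8.77), Ccl7 (8.13), Ccl2 (6.13), Ccl8 (4.9), Cx3cl1 (4.75), Ackr4 (1.99), Cxcl12 (1.44), Ccl9 (0.991), Cxcl5 (0.318) and Cxcl1 (0.148). The order differed between the groups. In GFP, Ackr3, Ccl7 and Cx3cl1 stood at 6.55 ± 0.883, 5.99 ± 1.7 and 5.42 ± 0.292 and could not be ordered beyond their spread, with Ccl2 next at 4.77 ± 0.661. Ackr4, at 3.74 ± 0.341, was then the fifth. In HA-NUR77, Ackr3 (11 ± 0.239) and Ccl7 (10.3 ± 1.5) stood together at the top, Ccl2 (7.5 ± 1.37) and Ccl8 (7.45 ± 3.22) overlapped, and Ackr4 (0.246 ± 0.0473) lay between Cxcl5 and Cxcl1. Lengths are the union of annotated exons, from 511 bp for Ccl8 to 8176 bp for Cxcl12, so a transcript shorter than the union has a higher level than this scale gives it.

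Gene length also moved with the group difference over all genes. In the shortest of 5 equal length classes, up to 2491 bp, the median log2 fold change of the 2491 genes was 0.14, and it was −0.14 in the longest class. Ccl2, Ccl7 and Ccl8 lie in the shortest class, Ccl9 and Ackr3 in the next (median 0.07), Cx3cl1 in the middle class (0.01), Ackr4 in the fourth (−0.03) and Cxcl12 in the longest. The fitted values of Ccl2, Ccl7 and Ccl8 were 0.66, 0.77 and 1.63, in a class with a median of 0.14. The spread within a class is not given here, and the part of length in the members' values was not tested.

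Several members carry AU-rich elements in the 3′ UTR, sequences through which short-lived cytokine mRNAs are marked for decay. The nonamer TTATTTATT was present 2 times in Cxcl1 and 1 time in Cx3cl1 and in no other member, against 8.35% of 11732 tested genes with a 3′ UTR of at least 50 bp. The sites of Cxcl1 (chr5:90892615-90892643 and chr5:90892908-90892936) and of Cx3cl1 (chr8:94780850-94780878), all on the plus strand of GRCm38, are shown with the nonamer in capitals.
Cxcl1 site A: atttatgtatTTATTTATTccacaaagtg
Cxcl1 site B: agaatgtcagTTATTTATTgaaagtcgtc
Cx3cl1: cagtgaacaaTTATTTATTggattcccag
Per kilobase of 3′ UTR, the pentamer ATTTA occurred 11.8 times in Cxcl1, 4.6 in Ccl7, 4.5 in Cxcl5, 3.64 in Ccl2, 2.03 in Ccl9, 1.83 in Ackr4, 1.63 in Ackr3, 0.771 in Cxcl12, 0.534 in Cx3cl1 and 0 in Ccl8, against a median of 1.35 over these genes. Ccl8 had none in an annotated 3′ UTR of only 165 bp, and Cxcl1, with the most, had too few reads to fit. A relation between these elements and the group differences was not tested.

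Of 8 genes for proteins that bind AU-rich mRNAs, 3 fell and 0 rose by edgeR (DESeq2 also called 0 higher, and 0 had a higher level with an unadjusted p under 0.05), with a median log2 fold change of −0.08 against 0.01 over all genes. The shares over all genes tested were 13.2% lower and 12.4% higher. Zfp36l1, which speeds the decay of such mRNAs, fell from 155 ± 3.59 to 102 ± 2.39 CPM (SD, n = 3; log2 fold change −0.61, SE 0.06, adjusted p = 0.000692). Its paralog Zfp36l2 fell by 0.68 on the log2 scale (SE 0.18, adjusted p = 0.0292) and Tia1, a translational repressor, by 0.46 (SE 0.11, adjusted p = 0.0183). Zfp36l2 was not called when a library was left out in 4 cases, HA-NUR77 replicates 1 (adjusted p = 0.0767) and 3 (0.0635) and GFP replicates 1 (0.109) and 2 (0.0807), nor with no filter (0.0726), and Tia1 was not called without GFP replicate 1 (0.0692). Without GFP replicate 1 the list thus had 1 gene lower. Zfp36 itself, which encodes tristetraprolin, had a log2 fold change of −0.06 (SE 0.17, adjusted p = 0.799).

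Most other genes of the chemokine system had almost no reads. Of 33 further chemokine ligands, 29 are in the tables, 10 had no read and 5 were tested, of which Ccl11 rose and 0 fell. Over all genes tested, 12.4% were called higher and 13.2% lower. The median log2 fold change of the 5 was −0.05. By edgeR 1 had an unadjusted p under 0.05 and a lower level, Cxcl13, which attracts B cells, with 34, 27 and 50 reads in GFP and 19, 35 and 21 in HA-NUR77 (log2 fold change −0.85, SE 0.31, adjusted p = 0.0802; 0.0163 with the replicate number as a block), and DESeq2 called 0 lower. Cxcl14, singled out after its values were seen, did not pass the filter, with 15, 8 and 18 reads in GFP and 4, 2 and 2 in HA-NUR77. Cxcl14 had a depth-scaled ratio of 0.162, with an exact binomial 95% interval of 0.0655 to 0.35 that covers counting error only. With no filter its adjusted p was 0.00406, and it passed the filter and was called lower when HA-NUR77 replicate 1 (adjusted p = 0.0314), 2 (0.0333) or 3 (0.0271) or GFP replicate 2 (0.0124) was left out.

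Of 23 further chemokine receptors, 22 are in the tables, 10 had no read and 2 were tested. Both fell, Cxcr4 as above and Cxcr6, the receptor of CXCL16, from 12, 42 and 16 to 6, 9 and 3 reads (log2 fold change −2.25, SE 0.62, edgeR adjusted p = 0.0345). None rose by edgeR or DESeq2, and 0 had an unadjusted p under 0.05 and a higher level. Among all genes tested, edgeR called 12.4% higher and 13.2% lower, and 2 genes are too few to give a direction for the receptors. Cxcr6 was not called when HA-NUR77 replicate 1 (adjusted p = 0.0969), 2 (0.0662) or 3 (0.0781) or GFP replicate 2 (0.0567) was left out, and its log2 fold change was −1.46 without GFP replicate 2. Ccr9, singled out after its values were seen, did not pass the filter. It had 4, 7 and 11 reads in GFP and 1, 1 and 3 in HA-NUR77, and was called lower by edgeR with no filter (adjusted p = 0.0383). The other scavengers were near 0, with no read of Ackr1 and 3 reads of Ackr2 in all, so Ackr3 and Ackr4 carried nearly all reads of the atypical receptor genes. Ccr2, the main receptor of CCL2 and a receptor of CCL7, had no read, and Cxcr2 had 3 in all.

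Genes of the pathways known to switch on chemokine transcription mostly did not pass the test, nor did most genes of the whole table. Over all genes tested, 12.4% were called higher and 13.2% lower by edgeR. The activity of these pathways was not measured. Of 30 genes of the TNF, IL-1 and TLR receptors and the NF-κB pathway, 1 rose, 3 fell and 26 did not pass, with a median log2 fold change of −0.05. With the replicate number as a block, 4 were higher and 7 lower. Tlr2, a receptor of bacterial lipoproteins, fell from 18 ± 2.69 to 10.2 ± 1.14 CPM (SD, n = 3; log2 fold change −0.82, SE 0.14, edgeR adjusted p = 0.00639). Ripk1, a kinase of the TNF receptor complex, fell by 0.80 on the log2 scale (SE 0.16, adjusted p = 0.0119), and the adaptor Traf6 by 0.25 (SE 0.07, adjusted p = 0.0388), while Traf2 rose by 0.24 (SE 0.07, adjusted p = 0.032). Traf2 was not called in any of the 6 fits without 1 library (adjusted p from 0.0628 to 0.106), nor Traf6 in the 5 fits other than that without HA-NUR77 replicate 2 (0.0545 to 0.123). With no filter neither was called (0.0579 for Traf2 and 0.0568 for Traf6). The subunit genes Rela (log2 fold change 0.11, SE 0.07, adjusted p = 0.28) and Nfkb1 (−0.19, SE 0.08, adjusted p = 0.121; 0.0175 with the block) did not pass.

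Of 20 genes of interferon and IL-6 family receptors, JAK kinases, STAT factors and IRF factors, 2 rose, 3 fell and 15 did not pass, with a median log2 fold change of 0.05, and 7 were lower with the block. The shares over all genes tested, without the block, were 12.4% higher and 13.2% lower. Lifr, the receptor of leukaemia inhibitory factor, fell from 311 ± 35.7 to 127 ± 5.81 CPM (SD, n = 3; log2 fold change −1.29, SE 0.10, edgeR adjusted p = 0.000235). Jak2 fell by 0.54 on the log2 scale (SE 0.08, adjusted p = 0.00442) and Osmr, the oncostatin M receptor, by 0.54 (SE 0.12, adjusted p = 0.0183; 0.0532 without GFP replicate 1 and 0.0532 without GFP replicate 2). Irf1 rose by 0.30 (SE 0.09, adjusted p = 0.0426) and Stat3 by 0.23 (SE 0.07, adjusted p = 0.0434). Stat3 was called in 0 of the 6 fits without 1 library (adjusted p from 0.0527 to 0.122) and Irf1 only without GFP replicate 1 (0.0623 to 0.151 in the others), and Stat3 was not called with no filter (0.0755). DESeq2 called 5 genes higher. Libraries of the HA-NUR77 group differed in Irf7, a gene that interferon induces, singled out after its values were seen. It had 430, 801 and 70 reads in HA-NUR77 and 61, 146 and 101 in GFP, with an edgeR adjusted p = 0.0955 for a log2 fold change of 1.64 (SE 0.64). Replicates 1 and 2 were thus high and replicate 3 was not. HA-NUR77 replicate 3 was also the lowest of its group for Ccl2, Ccl7, Ccl9 and Cx3cl1, while it was the highest for Ccl8, Cxcl1, Cxcl12 and Ackr3, and between the other replicates for Cxcl5 and Ackr4. Without HA-NUR77 replicate 3, Irf7 was called higher (adjusted p = 0.0129), and 4 genes of the list were. The part of this in the members' values was not tested.

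Of 23 genes for proteins that cut, present or internalise chemokines, 20 were tested, of which 7 fell, 1 rose and 12 did not pass. Their median log2 fold change was −0.13, against 0.01 over all genes. By edgeR, 13.2% of all genes tested were called lower and 12.4% higher. Mmp14, a membrane metalloprotease that can trim CCL7 and CXCL12, fell from 640 ± 122 to 315 ± 33.3 CPM (SD, n = 3; log2 fold change −1.03, SE 0.15, edgeR adjusted p = 0.00379). Sdc2, a heparan sulphate core protein, fell by 0.61 on the log2 scale (SE 0.09, adjusted p = 0.00445), and Ndst1, which sulphates heparan chains to which chemokines bind, by 0.44 (SE 0.09, adjusted p = 0.0122; 0.0516 without GFP replicate 1). The gene that rose, named after its value was seen, was Gpc1, for the core protein glypican-1 (log2 fold change 0.36, SE 0.10, adjusted p = 0.0362). It was called only without GFP replicate 3 among the 6 fits without 1 library (0.0697 to 0.11 in the others). With the block 2 genes were higher. Leaving out HA-NUR77 replicate 1 or 3 left 3 and 4 genes called lower, and leaving out GFP replicate 1 or 2 left 2 and 4.

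The genes whose profile over the 6 libraries lay nearest to that of Ackr4, by Euclidean distance of log2(CPM + 0.1) relative to the GFP mean among 11576 protein-coding genes tested, were Kank4 (distance 0.604), Pde1c (0.613) and Gja5 (0.705). Kank4 had a mean of 0 CPM in HA-NUR77 and 1.23 CPM in GFP, so its distance is set by the added 0.1 CPM and its rank is not a measure of likeness. Nearest to Ackr3 were Abra (0.207), Fhl1 (0.217) and Sirpa (0.218). Nearest to Ccl2 were Ero1lb (0.262), Hmga1b (0.263) and Slc16a13 (0.29), and nearest to Cxcl12 were Cacna1a (0.198), Bbof1 (0.203) and Pars2 (0.304). With 6 libraries in 2 groups such a distance mainly compares the group difference.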

How the data were processed

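Each deposited table holds whole-number counts for Ensembl genes in 1 library, which the authors had not scaled. TopHat2 2.1, HTSeq, DESeq2 and the build mm10 are named in the submitters' processing notes, with no annotation release or strand setting. Stranded poly(A) libraries were made, per the labels' protocols.

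Symbols, positions and exon lengths came from GENCODE M21 (GRCm38), matched for 22888 of 23154 IDs. Genes were kept by filterByExpr (minimum count 10), scaled with TMM factors (CPM) and tested with edgeR 4.0.16 (R 4.3.3; robust quasi-likelihood, group as the only term, Benjamini-Hochberg over 12509 genes). An SE is the log2 fold change over the square root of its F statistic. Reads per kilobase divide CPM by exon length. The fits were also run on simulated counts with few changed genes and no shared effect of replicate number. That setting differs from the real libraries, and no conclusion is drawn from the run. Promoter windows came from RefSeq (GRCm38.p6), for 7 of the 10 members. No window is printed where it overlaps the member's own GENCODE gene, and overlap of windows with other genes was not checked.

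The members and lists were chosen with earlier results of these data known. Named genes are all members, of each list the 3 called members with the smallest adjusted p, or every called member where 5 or fewer were called, the most abundant marker of each cell type, and for likeness the 3 nearest genes. Others are called out in the text, give the neighbours and ligands of a member, or serve as reference points. The labels give both groups replicate numbers 1 to 3. Deviations from the group means correlated at 0.25, 0.55 and 0.47 for same-numbered libraries, each over 0.1, so the pairing rests on the values alone, and a fit with the number as a block is given where it changes the call of a named gene or moves a count by over 1.5 times. No pair of replicates agreed within sampling noise (lowest chi-square per degree of freedom 11.4). Each library is a dish of 1 line, so p-values measure the spread between dishes. Alternatives were other size factors, no filter, DESeq2 1.42.0, the block, and each library left out in turn.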

Additional observations from a re-analysis of the deposited data

How the results depend on the processing

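The fitted values of the 8 members kept their direction and moved by less than the spread between replicates in all 88 combinations of gene and alternative. That limit is wide, since leaving out 1 of 3 libraries moves a group mean by less than this spread. The log2 fold change of Cxcl12 met it while going from 0.20 to 0.0019 without GFP replicate 2. No conclusion on stability is drawn from the 88. Of 209 refits of the 19 named list genes, 0 changed direction and 43 lost the call, 39 of them without 1 library. The 19 genes were named because they were called in the main fit, and the refits reuse its libraries. A kept direction was therefore likely from the start, and no conclusion on stability is drawn from it. The log2 fold change of Nr4a1 was −0.082 without GFP replicate 2 and 0.44 without GFP replicate 3.

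A fit with a replicate block called 2942 genes higher and 3071 lower over the whole table, against 1549 and 1655 without it. The block gave 4 higher and 7 lower in the NF-κB list, 7 lower in the interferon and IL-6 list, 2 higher in the list of proteins that cut, present or internalise chemokines and 1 lower among the other ligands. Among cell type markers it gave 6 higher and 3 lower of the myoblast list (2 and 1 without it) and 9 higher and 1 lower of the differentiated muscle list (4 and 0). It gave 5 members higher and 2 lower, against 4 and 2. The counts in the other lists moved by less than 1.5 times. With no filter, the NF-κB list had 0 higher, the interferon list 1 higher, the other ligands 1 lower and the other receptors 3 lower. DESeq2 called 5 higher in the interferon list.

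Leaving out 1 library gave 642 to 1489 genes higher and 850 to 1572 lower, with the low counts from leaving out replicate 1 of HA-NUR77 (672 and 903) or of GFP (642 and 850), or GFP replicate 2 (927 higher). It gave 1 to 4 members higher and 1 to 2 lower. Among other ligands it gave 0 to 1 lower, and among other receptors 1 to 2 lower. It gave 0 to 1 higher in the NF-κB list, 0 to 4 higher and 2 to 5 lower in the interferon list (5 without GFP replicate 3), 0 to 1 higher and 2 to 8 lower in the list of proteins that cut, present or internalise chemokines, and 1 to 3 lower in the list of AU-rich binding proteins. The cause was not tested, beyond the fewer libraries in each fit. Depth limits Cxcl1 and Cxcl5, with 27 and 62 reads in all, and most other chemokine and receptor genes.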
